A study of Sus scrofa with 12 samples.

Results

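TNFRSF12A and TNFRSF21 are receptors of the tumour necrosis factor (TNF) family. They are 2 of the 31781 genes measured here in blastocysts of the pig (Sus scrofa). Both were chosen by their measured FPKM, for strong differences between the groups in these same libraries. Their own levels are therefore described below without a test. Identifiers are ENSSSCG00000027130 for TNFRSF12A and ENSSSCG00000001727 for TNFRSF21.

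RNA was measured in 11 libraries of blastocysts grown from unfertilised eggs that were activated without sperm (parthenogenesis). There were 3 libraries of fresh controls, 2 of a group labelled vitrification, 3 of vitrification I and 3 of vitrification II. To vitrify is to cool so fast that a glass forms in place of ice, and the labels used here do not state how the 3 vitrified groups differed. The series title names liquid helium without tying it to a group. Every library is labelled as blastocyst, whereas the Smart-Seq2 protocol speaks of sorted single cells, so each p-value measures no more than the spread among these libraries, and that spread may be technical. Age of the embryos, batch and pooling were not given in the sources used here.

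TNFRSF12A (also called Fn14) is the receptor of the ligand TWEAK, encoded by TNFSF12. It has no death domain, signals through TRAF adapters to NF-kB and kinases, and is known as a gene switched on by growth factors and tissue injury. TNFRSF21 (death receptor 6, DR6) carries a cytoplasmic death domain, has been described as binding a fragment of the amyloid precursor protein APP, and is linked to JNK signalling and caspases. Neither is counted among the classical lineage genes of the blastocyst.

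The values are FPKM, that is fragments scaled by gene length and library total, as made by the authors. Since gene length is accounted for, levels of different genes can be set side by side. Sequencing depth is unknown, because the files used hold no counts. Summed FPKM ran from 439650 to 591894 per library, and the share of it from 13 mitochondrially encoded genes from 16.9% to 64.3%. Markers of trophectoderm, the outer layer of the blastocyst, differed in level. KRT8 lay between 1097 and 18589 FPKM and GATA3 between 20.9 and 64.9, while CDX2 did not exceed 4.99 and ELF3, TEAD4, TJP1 and ATP1B1 fell below 1.1 FPKM in some libraries. Their summed FPKM (18 genes) was 10964 to 17018 in fresh control, 7639 to 18093 in vitrification, 2917 to 6278 in vitrification I and 15084 to 23223 in vitrification II. Epiblast markers (9 genes) summed to 16.5 to 22.8 FPKM in fresh control, 21.7 to 52.2 in vitrification, 11.6 to 20.1 in vitrification I and 54.0 to 129 in vitrification II. Cumulus and granulosa markers (10 genes) summed to at most 4.11 FPKM, with HAS2 and PTX3 listed at 0 in all 11 libraries. Leukocyte and erythroid markers (9 genes) summed to between 1.80 and 15.5 FPKM, with PTPRC, CSF1R and ALAS2 listed at 0 in all 11.

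TNFRSF12A was low in vitrification I and high in vitrification II. Its FPKM was 68.7, 33.7 and 45.5 in the 3 fresh controls and 76.0 and 64.9 in the 2 vitrification libraries. It was 7.14, 7.63 and 8.66 in vitrification I and 158.3, 208.5 and 141.4 in vitrification II. Every vitrification I library lay below every other library, and every vitrification II library lay above every other library. Mean FPKM ± SD was 49.3 ± 17.8 (n = 3) in fresh control, 70.5 ± 7.87 (n = 2) in vitrification, 7.81 ± 0.77 (n = 3) in vitrification I and 169.4 ± 34.9 (n = 3) in vitrification II. The order of the means was therefore vitrification I, fresh control, vitrification, vitrification II. Fresh control and vitrification were neighbours in this order whose libraries overlapped. No other pair of groups overlapped.

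In fold terms, the mean of TNFRSF12A in vitrification I was 6.31-fold below that of fresh control, and in vitrification II 3.44-fold above it. Between vitrification II and vitrification I the ratio of means was 21.7. As a difference of mean log2(FPKM + 1), this last contrast was 4.26, and 16 of the 9411 genes that passed a filter on low values had a larger difference. The filter kept genes that reached 1 FPKM in 3 libraries or more. The median gene was itself 0.68 higher in vitrification II than in vitrification I, and relative to that median TNFRSF12A differed by 3.58. Relative to the median gene, its difference from fresh control was -2.39 in vitrification I and 1.18 in vitrification II. Of the 9411 genes, 623 (6.62%) had every vitrification I library below and every vitrification II library above the fresh controls, as TNFRSF12A did. The pooled SD of TNFRSF12A within groups was 0.32 on the log2 scale. By group the SD ran from 0.12 in vitrification I to 0.51 in fresh control.

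TNFRSF21 followed another order. Its FPKM was 7.27, 4.28 and 10.2 in fresh control and 41.8 and 77.4 in vitrification. It was 12.7, 11.3 and 33.9 in vitrification I and 26.5, 22.7 and 28.5 in vitrification II. All 8 vitrified libraries lay above all 3 fresh controls, although the nearest pair of values, 11.3 and 10.2, was close. The same held for 742 of the 9411 genes (7.88%). Mean FPKM ± SD was 7.26 ± 2.97 (n = 3) in fresh control, 59.6 ± 25.1 (n = 2) in vitrification, 19.3 ± 12.7 (n = 3) in vitrification I and 25.9 ± 2.95 (n = 3) in vitrification II. Fresh control was lowest and vitrification highest. Vitrification I and vitrification II lay between them as neighbours with overlapping libraries, because vitrification I replicate 3 exceeded every vitrification II library.

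The mean of TNFRSF21 was 8.22-fold above fresh control in vitrification, 2.66-fold in vitrification I and 3.57-fold in vitrification II. As differences of mean log2(FPKM + 1), relative to the median gene, these were 2.69, 1.26 and 1.14, and without that shift 2.88, 1.20 and 1.76. Without replicate 3 of vitrification I, the mean of that group was 1.66-fold above fresh control and the unshifted difference 0.72. In vitrification II the unshifted difference was 0.95 after quantile normalization. In vitrification against fresh control, 6 of the 9411 genes had a larger difference. The pooled SD within groups was 0.59 on the log2 scale, above that of TNFRSF12A. The difference between vitrification II and vitrification I was 0.57, less than that SD, and -0.12 relative to the median gene. Without vitrification I replicates 1, 2 or 3 in turn it was 0.37, 0.29 and 1.04. It turned to -0.0457 when values were scaled to the total without mitochondrial genes and to -0.24 after quantile normalization. These comparisons with fresh control share the same 3 control libraries.

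The balance between the receptors differed by group. The ratio of TNFRSF12A to TNFRSF21 in FPKM was 9.45, 7.87 and 4.46 in fresh control, 1.82 and 0.839 in vitrification, 0.561, 0.675 and 0.255 in vitrification I, and 5.98, 9.19 and 4.96 in vitrification II. TNFRSF12A was the more abundant of the pair in every fresh control and vitrification II library, and TNFRSF21 in every vitrification I library. The vitrification libraries were divided. Ratios of fresh control and vitrification II overlapped, and the other groups lay below both. Over the 11 libraries the log2 levels of the receptors had a Pearson r of 0.27, and their deviations from the group means one of 0.21.

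**Figure D1:**
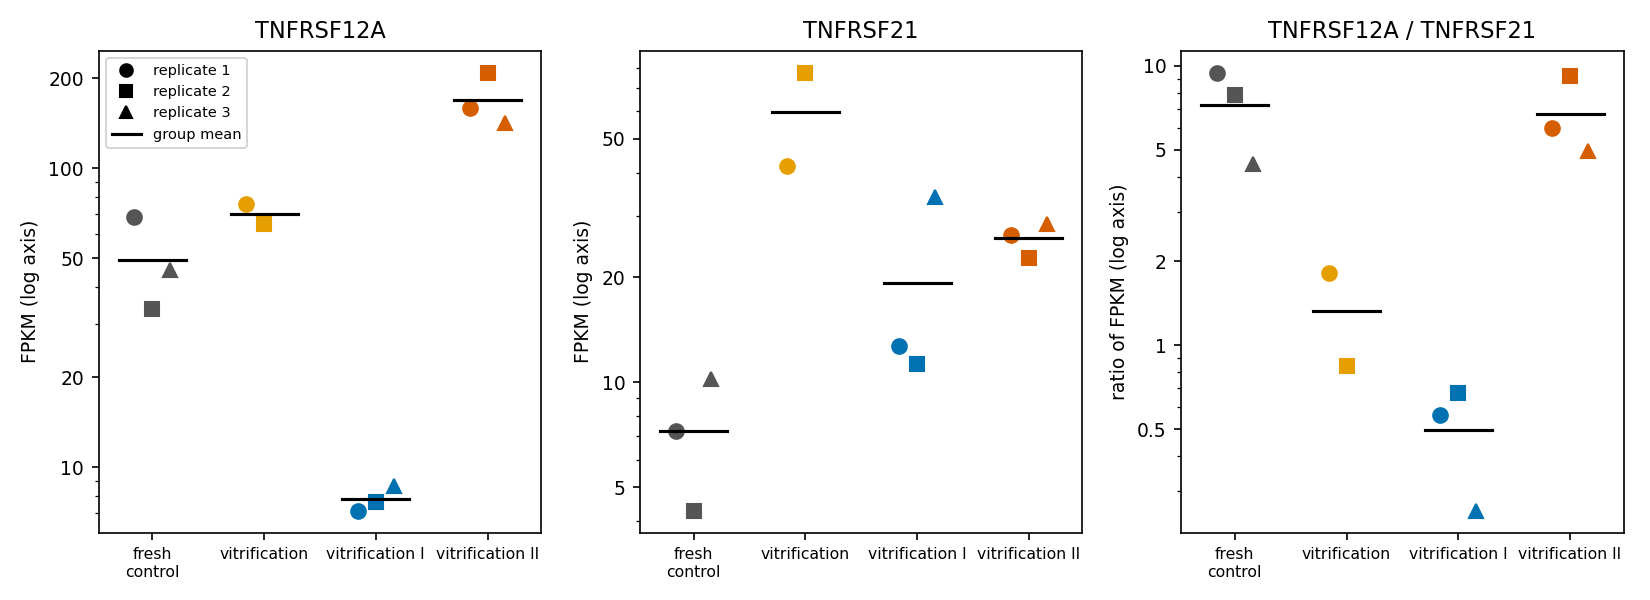
FPKM of TNFRSF12A (left) and TNFRSF21 (middle) and their ratio (right) on log axes, with 1 symbol per library, its shape giving the replicate, and a bar at the group mean. TNFRSF12A runs from 7.14 to 8.66 in vitrification I and from 141.4 to 208.5 in vitrification II, while TNFRSF21 is lowest in fresh control and highest in vitrification.

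Among all genes that passed the filter, TNFRSF12A stood between the 63.2 and 96.2 percentiles of a library's levels. It ranked 354th to 493rd in vitrification II and 2488th to 3466th in vitrification I. TNFRSF21 ranked 539th and 958th in vitrification and 2524th to 3773rd in fresh control. The mean mitochondrial share was highest in vitrification I, where TNFRSF12A was lowest, and lowest in vitrification II, where TNFRSF12A was highest. Between fresh control and vitrification, however, both means were higher in vitrification. The share was 43.9% to 64.3% in vitrification I and 16.9% to 22.1% in vitrification II. It was 37.6% to 43.9% in fresh control and 38.7% to 51.8% in vitrification. The r of that share with TNFRSF12A was -0.82 and with TNFRSF21 0.02 over the 11 libraries, which share these totals. Scaled to the total without mitochondrial genes, TNFRSF12A was still lowest in the 3 vitrification I libraries (8.32 to 12.9) and highest in the 3 vitrification II libraries (114.4 to 168.6). On that scale fresh control and vitrification no longer overlapped for TNFRSF12A, while vitrification and vitrification I overlapped for TNFRSF21. Summed trophectoderm and epiblast markers had their lowest values in vitrification I and their highest in vitrification II, as TNFRSF12A did. Unlike the levels of TNFRSF12A, the epiblast sums of vitrification I and fresh control overlapped. The trophectoderm sums of vitrification II also overlapped those of fresh control and of vitrification. The markers did not all fall in vitrification I. Their median log2 difference from fresh control was 0.06 for 18 trophectoderm and 0.05 for 7 epiblast markers that passed the filter. Of the 18, however, 7 were called lower and 2 higher in the limma test described below, against 9.77% and 8.85% over all genes. Of the 7 epiblast markers, 1 was called lower and 0 higher. Mean log2(FPKM + 1) of the trophectoderm markers was 4.98 ± 0.14 in vitrification I and 5.47 ± 0.18 in fresh control. Hypoblast markers (13 genes) had a mean log2(FPKM + 1) of 1.29 in vitrification I and 1.26 in fresh control. The part of these markers' cell types in the levels of TNFRSF12A was not tested. The number of genes at an FPKM of at least 1 ran from 6761 to 9440 and had an r of 0.66 with TNFRSF12A and 0.67 with TNFRSF21. In libraries of a whole embryo, fewer cells of a type and less RNA per cell cannot be told apart.

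The genes around these receptors were compared with limma over all 9411 genes. The lists hold TNF receptors and ligands, APP and the proteases that cut it, adapters, NF-kB, kinases, caspases and wound response genes. They were chosen with earlier results of these data known. A gene was called at a Benjamini-Hochberg adjusted p under 0.05. Changes are log2 differences ± SE given relative to the median gene, while the test was of the unshifted difference. Against fresh control the median gene differed by 0.19, -0.06 and 0.62 in the groups vitrification, vitrification I and vitrification II. Over all genes, 1.25% were called higher and 0.117% lower in vitrification, 8.85% and 9.77% in vitrification I, and 24.6% and 1.09% in vitrification II. Between vitrification II and vitrification I, 34.7% were higher and 3.75% lower. These splits depended on scaling. After quantile normalization 70.4% of the calls were upward in vitrification against fresh control, 57.2% in vitrification II against fresh control and 48.2% in vitrification II against vitrification I. With the total without mitochondrial genes, 73% were upward in vitrification I against fresh control and 68.6% in vitrification II against vitrification I.

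Ligands were mostly at or near 0. TNFSF12, which encodes TWEAK, the ligand of TNFRSF12A, did not exceed 0.71 FPKM and was listed at 0 in 4 libraries. Of 18 ligands on the list, 17 had an identifier and 13 of these stayed under 1 FPKM in every library. TNF, LTA, LTB, TNFSF11 and TNFSF14 were listed at 0 in all 11. Whether a listed 0 is a failed estimate was not tested. A 0 was also held by 2 of 52 ribosomal protein genes, and whether those genes were truly silent was not checked. The 3 ligands that passed the filter were TNFSF9, CD70 and TNFSF15.

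TNFSF9 (4-1BB ligand) had an FPKM of 0.49, 2.49 and 2.25 in fresh control and 11.4 and 14.6 in vitrification. It was 4.85, 3.67 and 2.95 in vitrification I and 11.1, 16.5 and 17.9 in vitrification II. All vitrified libraries were above the controls, as held for 7.88% of the 9411 genes. It rose in vitrification II against fresh control by 2.01 ± 0.40 (adjusted p = 0.000693, limma), a call held under every alternative run. It was also higher in vitrification (2.25 ± 0.44, adjusted p = 0.0214), a call that ended without fresh control replicate 2 (0.0761), without vitrification replicate 2 (0.305) and with those 2 groups alone (0.0818). Between vitrification II and vitrification I it rose by 1.05 ± 0.40 (adjusted p = 0.00365), which ended after quantile normalization. Its receptor TNFRSF9 did not exceed 0.08 FPKM. CD70, the ligand of CD27, was called higher in vitrification II than in fresh control (1.04 ± 0.57, adjusted p = 0.0442) and than in vitrification I (0.89 ± 0.57, adjusted p = 0.0412). Both calls ended with the pseudocount of 0.1, without the filter and under both other scalings. The first CD70 call held only without fresh control replicate 1 or vitrification I replicates 2 or 3 among the leave-outs, and the second ended without any 1 of 6 libraries. CD27 did not exceed 0.55 FPKM, and TNFSF15 passed no test.

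Of 26 TNF receptors on the list, 21 had an identifier, 8 passed the filter and 12 stayed under 1 FPKM in every library. Among those that passed, TNFRSF12A and TNFRSF21 had the 2 highest group means. TNFRSF1A, the death-domain receptor of TNF, had an FPKM of 4.67, 3.98 and 3.68 in fresh control and 13.1 and 10.9 in vitrification. It was 0.77, 2.29 and 2.12 in vitrification I and 18.9, 16.1 and 14.0 in vitrification II. Its groups stood in the same order as those of TNFRSF12A, without overlap. Vitrification I lay wholly below and vitrification II wholly above fresh control for 6.62% of the 9411 genes. TNFRSF1A rose in vitrification II against vitrification I by 2.03 ± 0.35 (adjusted p = 0.000102), held under every alternative. Against fresh control it rose in vitrification II by 1.14 ± 0.35 (adjusted p = 0.00352), which ended after quantile normalization (0.119). Its differences in vitrification (1.16 ± 0.40, adjusted p = 0.0887) and vitrification I (-0.89 ± 0.35, 0.0728) did not pass.

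LTBR, the lymphotoxin beta receptor, was low in vitrification I. Its mean FPKM was 4.49 ± 2.91 (n = 3) in fresh control, 6.23 ± 0.58 (n = 2) in vitrification, 0.74 ± 0.26 (n = 3) in vitrification I and 4.17 ± 0.81 (n = 3) in vitrification II. The fall in vitrification I against fresh control was -1.43 ± 0.42 (adjusted p = 0.0231) and ended if fresh control replicates 2 or 3 or replicate 1 of vitrification I was left out, without the filter, with the total without mitochondrial genes and with those 2 groups alone. The rise in vitrification II against vitrification I was 0.88 ± 0.42 (adjusted p = 0.00928) and ended with the total without mitochondrial genes and after quantile normalization. TNFRSF19 (TROY), a receptor without a death domain, had means of 0.99, 2.23, 5.27 and 5.81 FPKM in the same order of groups. It was called higher than in fresh control in vitrification I (1.68 ± 0.44, adjusted p = 0.0201) and in vitrification II (1.11 ± 0.44, adjusted p = 0.0121). The first of these calls ended without fresh control replicates 1 or 3 or replicate 1 of vitrification I, and the second without vitrification II replicate 1 and after quantile normalization. Both also ended without the filter. FAS, TNFRSF17 and CD40 passed no test. FAS, a death receptor, had means of 7.09, 15.1, 18.3 and 12.01 FPKM. TNFRSF1B, the other receptor of TNF, did not pass the filter, with means of 0.32, 0.83, 1.52 and 0.14 FPKM.

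**Figure D2:**
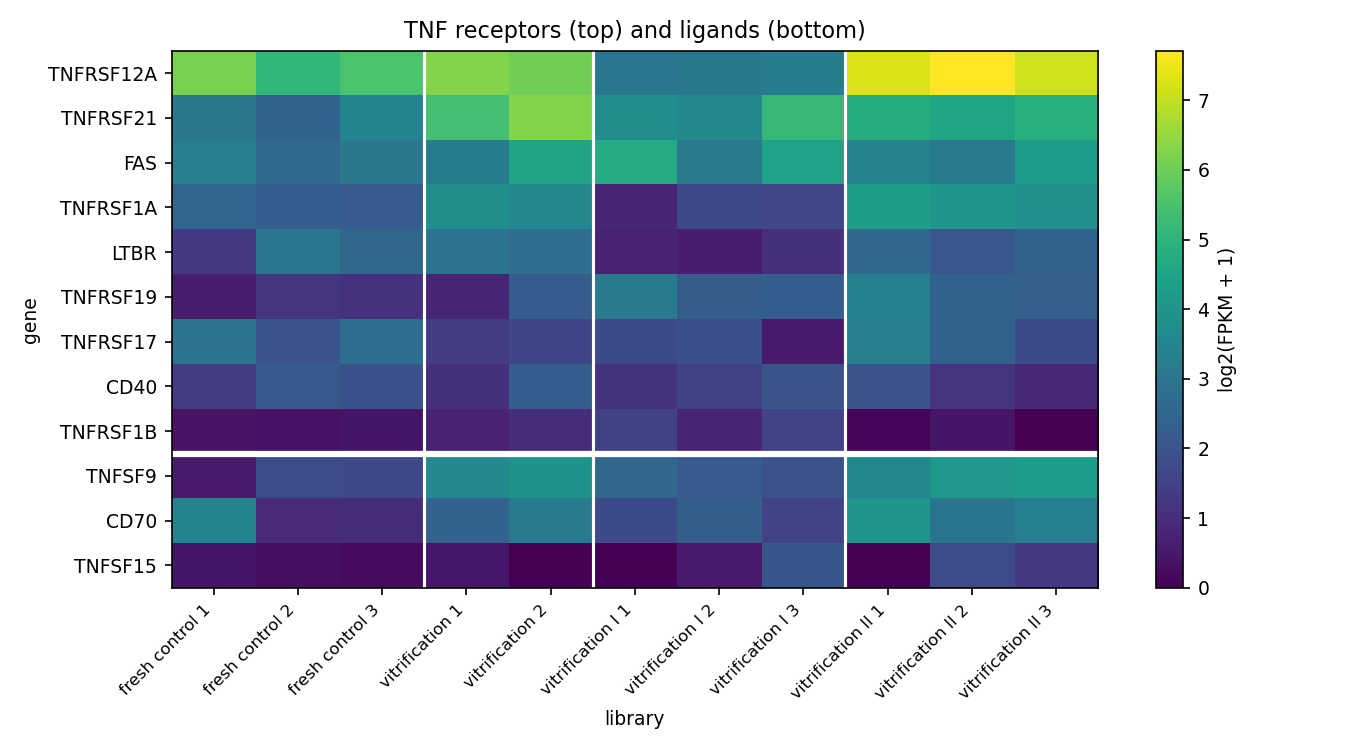
Heat map of log2(FPKM + 1) for the TNF receptors (rows above the white line) and ligands (below it) with a mean FPKM of at least 1 in any group, 1 column per library. Within their own rows, TNFRSF12A and TNFRSF1A are darkest in vitrification I and brightest in vitrification II. TNFSF9 is brighter in vitrification and vitrification II than in fresh control.

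APP, reported as a ligand of TNFRSF21, had an FPKM of 2.08, 3.16 and 3.64 in fresh control, 3.91 and 3.24 in vitrification, 6.74, 8.88 and 6.68 in vitrification I and 23.9, 5.13 and 21.8 in vitrification II. It rose in vitrification II against fresh control by 1.34 ± 0.47 (adjusted p = 0.00908), a call that ended without the filter and after quantile normalization. In vitrification I the difference was 1.17 ± 0.47 (adjusted p = 0.114). In vitrification, where TNFRSF21 was highest, it was 0.04 ± 0.53 (adjusted p = 0.866). Of the 9 genes of the APP list that passed the filter, 3 were called higher (33.3%, against 8.85% over all genes) and 1 lower in vitrification I, and 5 higher in vitrification II (55.6%, against 24.6%). APH1A and PSENEN, subunits of the gamma-secretase that cuts APP, rose in vitrification I by 2.58 ± 0.48 (adjusted p = 0.00315) and 1.5 ± 0.30 (adjusted p = 0.00554), both held under every alternative. ADAM10, an alpha-secretase, was the third (1.68 ± 0.41, adjusted p = 0.0141), and PSEN2, a catalytic subunit of gamma-secretase, the 1 that fell (-1.12 ± 0.33, adjusted p = 0.0230). The ADAM10 call ended without the filter and without fresh control replicate 2 or vitrification I replicate 3, and that of PSEN2 without either of these, fresh control replicate 3 or vitrification I replicate 1. In vitrification II against fresh control ADAM17, another sheddase and 1 of the 5 genes called higher, rose by 1.51 ± 0.37 (adjusted p = 0.0015), held under every alternative. ADAM17 passed the filter only because of vitrification II, so no weight is put on its call. APP, APH1A, ADAM10 and PSEN2 were the other 4, and their calls ended after quantile normalization. Those of ADAM10 and PSEN2 also ended without single libraries, fresh control replicate 3 and vitrification II replicate 1 among them. PSENEN fell in vitrification II against vitrification I by 2.54 ± 0.30 on the log2 scale (adjusted p = 0.000408), and PSEN2 rose by 1.75 ± 0.33 (adjusted p = 0.000131).

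TRADD and FADD, death-domain adapters, had group means of at most 4.05 and 1.49 FPKM and passed no test against fresh control. TRADD was called higher in vitrification II against vitrification I (0.45 ± 0.33, adjusted p = 0.0137), ending without vitrification II replicates 2 or 3 and under both other scalings. FADD and CASP8, the caspase it recruits, passed no test in any of the 4 comparisons. Of 12 adapters tested, 4 were higher in vitrification II against fresh control (33.3%, against 24.6% over all genes), named BIRC2, BIRC3, TRAF6 and TRAF7. BIRC2 (cIAP1), a ubiquitin ligase bound by TRAF2, had a change of 1.02 ± 0.36 (adjusted p = 0.00534) and was the 1 of these whose call held without each library in turn. Without fresh control replicate 2 or 3 the other three calls ended. That of BIRC2 ended after quantile normalization (0.213). TRAF7 was 2.11 ± 0.39 higher in vitrification II than in vitrification I (adjusted p = 0.000137) and was called lower in vitrification I than in fresh control, the latter ending without vitrification I replicate 1.

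Of 10 NF-kB pathway components tested, 4 had higher calls in vitrification II against fresh control (40%, against 24.6% over all genes) and 5 against vitrification I (50%, against 34.7%). In vitrification limma called 0, with 2 at an unadjusted p under 0.05. IKBKB, a kinase that releases NF-kB, had a mean FPKM of 0.82 ± 0.48 (n = 3) in fresh control, 1.67 ± 0.57 (n = 2) in vitrification, 0.20 ± 0.12 (n = 3) in vitrification I and 5.73 ± 1.73 (n = 3) in vitrification II. It rose in vitrification II by 1.26 ± 0.33 against fresh control (adjusted p = 0.00147) and by 1.79 ± 0.33 against vitrification I (adjusted p = 0.000113). Both calls held under every alternative. RELA, the transactivating subunit, was called higher in vitrification II than in fresh control (0.69 ± 0.36, adjusted p = 0.0165), a call that ended without fresh control replicate 2 or vitrification II replicate 3 and under both other scalings.

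Of 13 NF-kB target genes tested, 1 was higher (7.69%) and 2 lower (15.4%) in vitrification I, against 8.85% and 9.77% over all genes. In vitrification II 7 were higher than in fresh control (53.8%, against 24.6% over all genes) and 8 higher than in vitrification I (61.5%, against 34.7%). NFKBIA, the prototype target and inhibitor, passed no test, with means of 4.26, 4.99, 3.05 and 3.90 FPKM. NFKBIB, a related inhibitor, fell in vitrification I against fresh control (-2.41 ± 0.44, adjusted p = 0.00233) and was higher in vitrification II than in vitrification I (2.05 ± 0.44, adjusted p = 0.000399). BCL2L1, which protects cells from mitochondrial death, had means of 12.2, 11.6, 3.42 and 44.7 FPKM. It rose in vitrification II by 1.24 ± 0.37 against fresh control (adjusted p = 0.00333), ending after quantile normalization (0.0863), and by 2.69 ± 0.37 against vitrification I (3.35e-05). Its fall in vitrification I (-1.45 ± 0.37, adjusted p = 0.0121) ended without fresh control replicates 2 or 3. The early response gene IER3 was listed at 0 in all 3 vitrification I libraries and had 15.0, 7.93 and 39.3 FPKM in vitrification II. Against fresh control it rose in vitrification II by 2.80 ± 0.57 (adjusted p = 0.0011). IER3 passed the filter only because of vitrification II, so no weight is put on this call. TNFAIP3 (A20), a feedback inhibitor with a mean of 0.09 FPKM in fresh control, was called higher in vitrification I (1.69 ± 0.52, adjusted p = 0.0426) and vitrification II (1.22 ± 0.52, 0.0201), and each call ended without the filter and without several single libraries, fresh control replicate 2 among them.

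Of 11 JNK and p38 pathway genes tested, 1 was higher and 1 lower in vitrification I (9.09% each), and 3 were higher in vitrification II against fresh control (27.3%). These shares were near the 8.85%, 9.77% and 24.6% over all genes. MAP3K1, an upstream kinase of JNK, had an FPKM of 0.83, 0.34 and 0.16 in fresh control and 6.14, 5.44 and 3.47 in vitrification I. It rose in vitrification I by 2.12 ± 0.35 (adjusted p = 0.00154), held under every alternative, and in vitrification II by 0.91 ± 0.35 (adjusted p = 0.00669), which ended after quantile normalization (0.0755). JUN was the gene that was lower in vitrification I (-1.41 ± 0.36, adjusted p = 0.0114), a call that ended without fresh control replicate 2 or vitrification I replicate 1 and with the total without mitochondrial genes.

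Of 14 caspases and mitochondrial death genes tested, 1 was higher (7.14%) and 3 lower (21.4%) in vitrification I, against 8.85% and 9.77% over all genes. In vitrification II 6 were higher (42.9%) and 1 lower (7.14%) than in fresh control, against 24.6% and 1.09% over all genes. BID, which links death receptors to mitochondria when cut by caspase-8, had an FPKM of 5.84, 3.82 and 4.60 in fresh control and 11.6 and 5.22 in vitrification. It was 0.25, 1.21 and 0.43 in vitrification I and 33.9, 39.1 and 37.9 in vitrification II. As for TNFRSF12A, the vitrification I libraries were the lowest, the vitrification II libraries the highest, and fresh control and vitrification overlapped. For 6.62% of the 9411 genes vitrification I lay wholly below and vitrification II wholly above fresh control. BID fell in vitrification I (-1.78 ± 0.38, adjusted p = 0.00464) and rose in vitrification II against fresh control (2.11 ± 0.38, adjusted p = 0.000424) and against vitrification I (3.90 ± 0.38, adjusted p = 5.59e-06). These calls held under every alternative. The gene that was lower in vitrification II, CYCS, which encodes cytochrome c, was chosen after its values were seen (-1.60 ± 0.34, adjusted p = 0.0474), and its call ended without any 1 of 6 libraries, fresh control replicates 2 and 3 among them, and after quantile normalization, with the replicate number as a block, without the filter and with the pseudocount of 0.1. BAK1 and PMAIP1, promoters of mitochondrial death, rose in vitrification II against vitrification I by 1.28 ± 0.37 (adjusted p = 0.00106) and 1.97 ± 0.58 (adjusted p = 0.00267). CASP6, an executioner caspase, passed no test, with means of 9.60, 4.81, 8.50 and 12.2 FPKM.

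Of 17 wound response genes and targets of the coactivator YAP tested, 10 were higher in vitrification II against fresh control and 10 against vitrification I. CCN2 and AJUBA, counted in both, reached the filter in vitrification II alone and so had to differ, and no weight is put on these counts. Against fresh control, the transcription factor MYC rose in vitrification II by 1.80 ± 0.38 (adjusted p = 0.000841), and the plasminogen activator PLAU by 1.61 ± 0.44 (adjusted p = 0.00291). The calls of MYC and PLAU held under every alternative. PLAU was listed at 0 in the 3 vitrification I libraries. AMOTL2, a regulator of YAP, rose by 1.87 ± 0.46 (adjusted p = 0.00197), ending after quantile normalization (0.0554). TEAD4, the YAP partner and also on the trophectoderm list, fell in vitrification I (-2.28 ± 0.49, adjusted p = 0.00514). CCN1 rose in vitrification II against vitrification I by 2.78 ± 0.66 (adjusted p = 0.0012). CRIM1 was the 1 gene of this list called in vitrification (1.98 ± 0.51, adjusted p = 0.0484), and it kept that call in 3 of 17 alternatives.

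Over the 95 genes of these lists that passed the filter, the 2 receptors left out, 2 were called in vitrification against fresh control, both higher (2.11%). In vitrification I, 10 were higher (10.5%) and 11 lower (11.6%), shares near those over all genes, and with the total without mitochondrial genes the split was 19 and 8. In vitrification II, 43 were higher (45.3%) and 1 lower. Without CCN2 and AJUBA, 41 of 93 were higher (44.1%), against 24.6% over all genes. Other genes called higher, such as IER3, ADAM17, NFKBIE and CASP2, also passed the filter only because of vitrification II. Fewer than 3 libraries of the other groups reached 1 FPKM for each. Such genes stayed in these shares, in those per list above and in those over all genes. No weight is therefore put on gaps between the shares of vitrification II and those over all genes. The split of 43 and 1 became 11 and 1 after quantile normalization, where 676 of all genes were called. It was 26 and 1 with the total without mitochondrial genes, where 1306 were called. Between vitrification II and vitrification I, 42 were higher (44.2%) and 1 lower, or 40 of 93 (43%) without CCN2 and AJUBA, against 34.7% over all genes. The split was 24 and 8 after quantile normalization and 31 and 5 with the total without mitochondrial genes. The median change of the 95 genes relative to all genes was 0.24, 0.04, 0.45 and 0.19 in these comparisons. Of the 21 calls in vitrification I, 13 ended without fresh control replicate 2, 9 without fresh control replicate 3, 8 without replicate 1 of vitrification I and 5 without its replicate 3. Of the 44 in vitrification II against fresh control, 20 ended without fresh control replicate 2, 19 without fresh control replicate 3, and 12 or 13 without any 1 vitrification II library. Of the 43 between vitrification II and vitrification I, at most 5 ended without any 1 library.

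**Figure D3:**
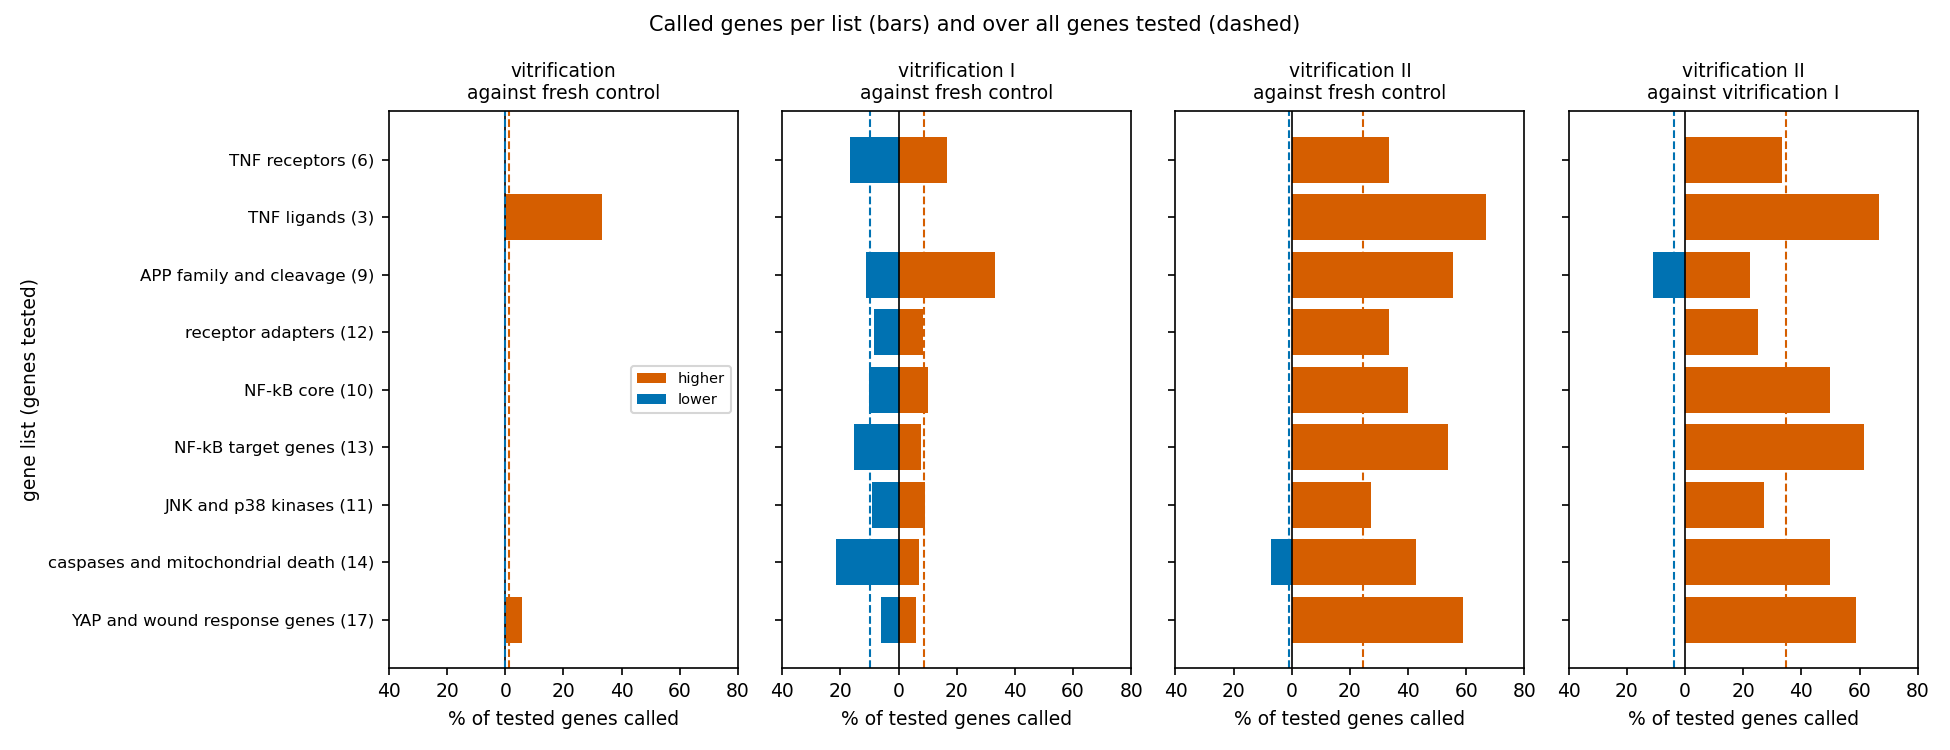
Percent of the tested genes of each list called higher (orange, to the right) or lower (blue, to the left) in 4 comparisons, with the number of genes tested in parentheses and dashed lines at the percent over all genes. The bars to the right pass the dashed line in all 9 lists in vitrification II against fresh control, the kinase list only just (27.3% against 24.6%). Against vitrification I the APP, adapter, receptor and kinase lists stay short of it. No weight is put on these gaps, since the lists are small and some genes passed the filter only because of vitrification II.

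Some genes had patterns over the 11 libraries much like that of TNFRSF12A. Among 4101 genes with a symbol and a mean FPKM of at least 5, the highest Pearson r of log2(FPKM + 1) with TNFRSF12A was that of ZYX (0.979), which encodes zyxin of focal adhesions and actin fibres. Its mean FPKM was 21.7, 24.8, 2.12 and 79.2 in fresh control, vitrification, vitrification I and vitrification II. It was followed by SYNGR2 (0.967), a vesicle membrane protein, TPD52L2 (0.965), LSM2 (0.962), an RNA-binding protein of the spliceosome, PPP2R1A (0.962), the scaffold of phosphatase 2A, EMG1 (0.961), which acts in ribosome assembly, RAB5C (0.960), a GTPase of early endosomes, and BID (0.960). The 99th percentile of r over the 4101 genes was 0.935, so that 1% of them lay above that value. Deviations from the group means gave an r between 0.090 (PPP2R1A) and 0.738 (LSM2) for these 8 genes, with 0.463 for ZYX and 0.462 for BID. The lowest r values were those of DHRS7 (-0.949), PIGP (-0.940), which acts in the synthesis of GPI anchors, and PSENEN (-0.930). All 3 had their highest mean in vitrification I.

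TNFRSF21 resembled a different set of genes. Among the 8 genes with the highest r was SLC7A8 (0.917), an amino acid transporter, with mean FPKM of 10.7, 92.0, 34.9 and 46.5 in the same order of groups. Others were HUWE1 (0.902), a ubiquitin ligase, TSPAN14 (0.885), a tetraspanin that partners ADAM10, ITM2C (0.877), C1orf115 (0.869), the membrane glycoprotein PDPN (0.866) and the desmosomal protein DSP (0.865). For TNFRSF21 the 99th percentile of r was 0.759. Deviations from the group means gave an r of 0.605 for SLC7A8 and 0.724 for TSPAN14. The lowest r values were those of 3 nuclear genes of mitochondria, UQCRQ (-0.917) of respiratory complex III, SDHD (-0.896) of complex II and PMPCB (-0.894), a peptidase that processes imported proteins. With the total without mitochondrial genes these were -0.675, -0.645 and -0.516. These correlations are descriptions over 11 libraries of 4 groups that share library totals.

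**Figure D4:**
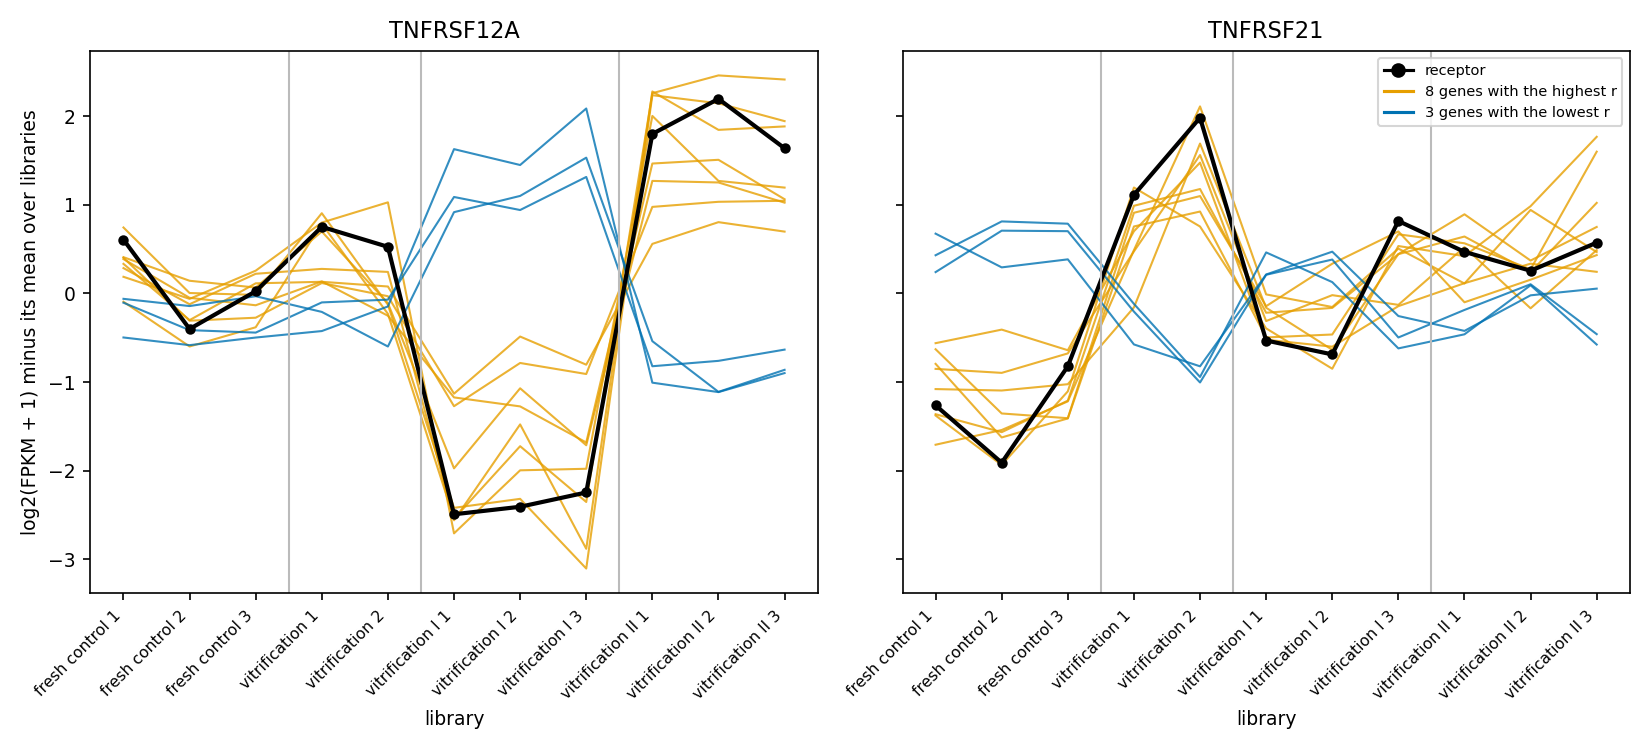
Log2(FPKM + 1) minus the mean over libraries for each receptor (black), the 8 genes with the highest r (orange) and the 3 with the lowest r (blue), by library, where lines join libraries only to guide the eye and the order within a group has no meaning. The orange genes on the left drop in vitrification I and peak in vitrification II with TNFRSF12A, and those on the right are lowest in fresh control with TNFRSF21.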

How the data were processed

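Per the labels' protocols, single cells were processed with Smart-Seq2 and sequenced as 150-bp paired-end reads. The deposited values are FPKM for 31781 Ensembl identifiers. TopHat2 2.0.13, Cufflinks 2.2.1, FastQC and DESeq2 are listed in the submitters' processing notes with no roles, and the genome build is not given in the sources used here. Gene symbols were matched for 15347 identifiers. The third vitrification library was not analysed here for lack of a matched column, leaving 2 libraries where the plan had 3. No values of other series were present, and 0 pairs of libraries were identical.

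Values were taken as log2(FPKM + 1). The 9411 genes that reached 1 FPKM in 3 libraries or more were fitted with limma 3.58.1 in R 4.3.3, with 1 mean per group over all 11 libraries, a trended prior and Benjamini-Hochberg adjustment over all genes kept. The scripts were tested on simulated data. Alternatives were another pseudocount, no filter, the total without mitochondrial genes, quantile normalization, a replicate block, 2 groups alone and each library left out.

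The receptors and gene lists were chosen with earlier results of these data known. The text names TNF receptors and ligands with a group mean of at least 1 FPKM, a fixed set of adapters, caspases and NF-kB genes, and from each other list up to 4 called genes with the largest change, mainly those that held without each library. Genes most like each receptor are the 8 with the highest and 3 with the lowest r. Some genes that these rules name are not reported here.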

Additional observations from a re-analysis of the deposited data

How the results depend on the processing

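The depth behind the FPKM values is unknown, 1 group has 2 libraries, and a listed 0 is not evidence of absence. The counts of called pathway genes in vitrification against fresh control (2) became 1 with a pseudocount of 0.1, 4 with the total without mitochondrial genes, 1 after quantile normalization and 0 with those 2 groups alone, where 28 had an unadjusted p under 0.05 in limma. Leaving out each library gave 0 to 3; it was 0 without fresh control replicate 2 and without vitrification replicate 2, with 19 and 15 genes at an unadjusted p under 0.05. Where a vitrification library was left out, the remaining one was assumed to vary like the other groups. In vitrification I against fresh control (21), leave-outs gave 9 to 24, with 9 without fresh control replicate 2 and 13 without fresh control replicate 3. In vitrification II against fresh control (44), the count was 26 without the filter, 27 with the total without mitochondrial genes and 12 after quantile normalization, and leave-outs gave 24 to 46. Over all genes that comparison had 2422 calls, against 676 after quantile normalization, 1306 with the total without mitochondrial genes, 1419 without the filter, 1017 without fresh control replicate 2 and 1236 without fresh control replicate 3. The cause of these shifts was not tested. In vitrification II against vitrification I the count stayed within 1.5 times of 43 in every alternative.

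Same-numbered libraries deviated from their group means with correlations of -0.147 to 0.143. No pairing by number was seen, though groups of 2 or 3 libraries cannot exclude one. With a replicate block the counts were 1, 23, 44 and 44 in the 4 comparisons.

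The TNFRSF12A difference in vitrification I against fresh control was -2.0 (against -2.46) with the total without mitochondrial genes, and in vitrification II against vitrification I it was 3.66 with that total and 3.73 after quantile normalization, against 4.26. The TNFRSF21 difference in vitrification II against fresh control was 0.95 after quantile normalization, against 1.76. In vitrification II against vitrification I its sign turned, to -0.0457 with the total without mitochondrial genes and -0.24 after quantile normalization. The directions of the receptors' other differences in the 4 comparisons held in every alternative examined for them. The replicate block and the fits of 2 groups alone were not examined for the receptors, nor were contrasts of vitrification with the other vitrified groups.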
